A study of Neurospora crassa with 24 samples.

Results

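The genes described here are those of *Neurospora crassa* that were low in the dark when the velvet gene *ve-1* was deleted. In the wild type their means differed by at most 2-fold between dark and light. Members were chosen by 4 criteria on CPM, the count of a gene scaled to a common library size with TMM factors: a ∆*ve-1* mean in the dark of at most 0.25 of the wild type mean in the dark, every ∆*ve-1* dark library below every wild type dark library, a wild type dark mean of at least 10 CPM, and a wild type light mean between 0.5 and 2 times the dark mean. The criteria gave 125 genes of the 9412 that passed the filter on low counts, out of 10561 in the table. Without the light criterion they would take 447 genes, 4.75% of those tested. All 125 are protein-coding in the RefSeq annotation. Because the wild type and ∆*ve-1* dark libraries and the wild type light libraries chose these genes, VED against WTD and WTL against WTD are given as description, without a test. Comparisons that set 1 of these 3 conditions against another condition share its libraries with the choice.

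RNA was collected 1 day before fertilization from tissue grown for 7 days at 22°C on synthetic crossing medium (SCM), a nitrogen-poor medium on which protoperithecia, the unfertilized female structures, form. The labels give 4 genotypes, grown under darkness or under light: WILD TYPE (WTD in the dark, WTL in the light), VELVET MUTANT (VED, VEL), WHITE-COLLAR MUTANT (WCD, WCL) and DOUBLE MUTANT VE-WC (DMD, DML), with 3 libraries in each of the 8 conditions and 24 in all. By their labels the mutants lack *ve-1*, *wc-1* or both, and the wild type carries neither deletion. Tissue of biological replicates was pooled for extraction, so libraries of 1 condition may differ less than cultures would, and p-values measure only this spread. In such bulk tissue, fewer cells of a type and less RNA per cell cannot be told apart.

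Velvet proteins are fungal regulators with a DNA-binding domain that act in complexes. In *Aspergillus nidulans* the VE-1 homolog VeA binds another velvet protein, VelB, and the methyltransferase-like protein LaeA, and the complex links light to sexual development, asexual sporulation and secondary metabolism. In *N. crassa*, loss of *ve-1* is known to alter the balance between conidia, the asexual spores, and aerial hyphae, while WC-1 is the blue-light receptor and transcription factor behind most light responses.

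The targeted genes were examined before the others. CPM of *ve-1* (NCU01731, chromosome II, 2607929 to 2611456, assembly NC12) was 291, 273 and 220.1 in the dark and 238, 176 and 286 in the light in the wild type, against 3.33, 1.72 and 3.35 in the dark and 5.18, 3.83 and 8.39 in the light in ∆*ve-1*. In the libraries labelled ∆*wc-1* it was 253, 270.5 and 279 in the dark and 61.3, 286 and 283 in the light, against 6.29, 7.63 and 3.44 in the dark and 1.599, 4.397 and 7.81 in the light in those labelled ∆*ve-1* ∆*wc-1*. Every library labelled as lacking *ve-1* was below every other library, and *ve-1* is itself a member by the criteria. The counts of *wc-1* were not low where the labels give its deletion: they were 69.2, 55.7 and 54.8 in the dark and 12.7, 32.1 and 30.05 CPM in the light among the libraries labelled ∆*wc-1* and 129, 37.02 and 36.1 in the dark and 15.5, 25.8 and 113 in the light in those labelled ∆*ve-1* ∆*wc-1*, against 27.8, 20.5 and 17.3 in the dark and 42.1, 7.12 and 41.2 in the light in the wild type. In the dark both were above the wild type, and in the light the ranges overlapped. Expression of *vvd*, a light-induced photoreceptor gene that depends on WC-1, was 13.9 ± 4.301 CPM (SD, n = 3) in WTD and 781 ± 275 in WTL, but 5.74 ± 2.63 in WCD and 4.49 ± 2.29 in WCL. It was 703 ± 403 in VEL and 19.2 ± 18.3 in DML, so all libraries labelled as lacking *wc-1* were below all WTL and VEL libraries in the light. As the *wc-1* counts and the *vvd* counts differ in this, the last 4 conditions are written below as libraries labelled ∆*wc-1* and libraries labelled ∆*ve-1* ∆*wc-1*.

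Some libraries stood apart from the others of their condition. The 10 most abundant genes together took 26.7% of the counts in WCL replicate 1 against 7.31% and 6.91% in the other WCL libraries, 23.9% in DMD replicate 2 against 7.50% and 7.38%, and 21.3% in DML replicate 2 against 9.13% and 7.43%. These 3 libraries are the ones named below as standing apart. In VEL replicate 1 the share was lower, at 8.62% against 15.2% and 19.4% in the other VEL libraries. DMD replicate 1 and DML replicate 3 were the most similar pair of the series (Spearman's rho 0.992 across genes), although their light labels differ. VEL replicate 1 was closer to DMD replicate 3 (rho 0.962) than to VEL replicates 2 and 3 (0.928 and 0.889). Markers of asexual spores differed between conditions: the summed CPM of 11 conidiation marker genes was 1151 to 3704 in WTD, 86632 to 141600 in WTL, 18659 to 36838 in VED and 39531 to 81654 in VEL. In the other conditions it was 1542 to 4687 in WCD, 831 to 3996 in WCL, 9578 to 20099 in DMD and 8799 to 19435 in DML. Marker genes of female structures summed to overlapping ranges in all 8 conditions, from 546 to 34823 CPM, but the highest sums were those of the pheromone precursor gene *ccg-4*, whose mean was 247 CPM in WTD and 7929 in VED. Without it the other 6 markers summed to 498 to 7457 in WTD, 3398 to 9299 in WTL, 313 to 548 in VED, 398 to 1130.1 in VEL, 2724 to 6295 in WCD, 521 to 4209 in WCL, 352 to 6415 in DMD and 401 to 883 in DML. Among them *app*, itself a member, had a mean below 1 CPM in VED. The gene *poi-2* took most of the largest sums, with 6563 CPM in WTD replicate 2 and 6158 in DMD replicate 2. Its ratio of VED to WTD means was 0.0593, against 3.06 for *asd-1*, 1.06 for *pre-1*, 0.741 for *fsd-1* and 0.533 for *sub-1*. The part of female structures in the results was not tested.

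Across the 125 members the wild type dark mean ran from 10.2 to 2665 CPM, with a median of 66.2 CPM, and the middle of that range lay well below the 2 most abundant members, *cps-1* and *hex-1*. The ratio of VED to WTD, which was bounded by the criteria, had a median of 0.176. The ratio of WTL to WTD, bounded likewise, had a median of 0.72 and a lower quartile of 0.587, and 101 members were below 1. Its median over genes of at least 10 CPM in WTD was 0.936. The 3 members nearest the limit of 0.25 were *cdc14* (ratio 0.248), *tca-18* (0.249) and *prr-5* (0.25), and the 3 genes just past it were NCU05575 (0.251), NCU01074 (0.251) and NCU00548 (0.252).

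The module was then followed into libraries that the criteria had not used. In each library a member's CPM was divided by its WTD mean, and the median over the 125 members was taken. This median was 85.8% to 97.1% in WCD and 70.6% to 114% in WCL. It was 32.0%, 22.1% and 17.6% in VEL replicates 1 to 3, 18.9%, 13.7% and 30.8% in DMD, and 46.8%, 18.8% and 24.9% in DML. Every library labelled as lacking *ve-1* was thus below every library labelled as carrying it, in dark and in light. Within the 3 conditions VEL, DMD and DML, the library in which those 10 genes took most (19.4%, 23.9% and 21.3%) had the lowest median, and the part of this composition in the result was not tested.

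**Figure D1:**
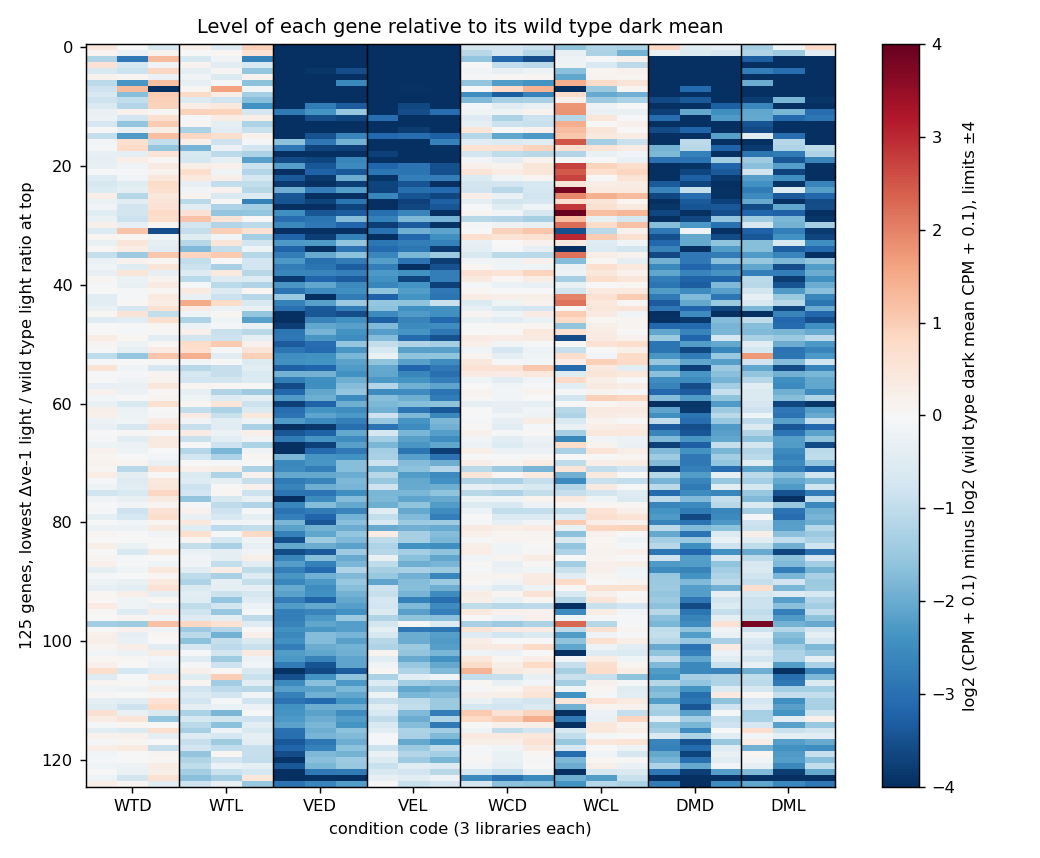
Level of each of the 125 genes (rows) in the 24 libraries (columns, 3 per condition code), as log2 (CPM + 0.1) relative to the WTD mean of the gene, with colours limited to ±4. The VED, VEL, DMD and DML columns are mostly blue, the WCD columns near white, and WCL replicate 1 holds both red and blue rows; the median member stood at 17.6% to 32.0% of its WTD mean in VEL.

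Loss of *ve-1* was compared in the light (VEL against WTL), in the dark among the libraries with a *wc-1* label (DMD against WCD) and in the light among them (DML against WCL). These 3 comparisons share no library, and the criteria used none of the DMD, WCD, DML, WCL or VEL libraries. WTL entered them only through the light ratio, which kept out genes with a WTL mean under 0.5 of the WTD mean. The shares, calls and p-values of members in VEL against WTL are therefore not free of the choice and are read as a description. A gene was called when its edgeR adjusted p was below 0.05 and its absolute log2 fold change above 1.

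In VEL against WTL, 49 of the 125 members (39.2%) were called lower and 0 higher, while 2.58% of all genes tested were called lower and 1.74% higher. DMD against WCD had 80 members (64.0%) called lower and 0 higher, against 5.4% of all genes lower and 7.09% higher. For DML against WCL the numbers were 65 members (52.0%) lower and 0 higher, with 5.94% of all genes lower and 6.6% higher. Median log2 fold changes of the members were -1.63, -1.99 and -1.67, against 0.06, 0.05 and 0.02 over all genes tested. The sign was negative for 122, 122 and 118 members. In total 40 members (32.0%) were called lower in all 3 comparisons, as were 1.18% of all genes. In 2 of the 3 comparisons 25 members were called (2.53% of all genes), in 1 comparison 24 (5.32%), and in 0 of them 36 (91% of all genes). DMD against WCD and DML against WCL shared 59 called members (3.22% of all genes).

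The calls were sensitive to single libraries. With each of the 6 libraries of a comparison left out in turn, members called ranged from 22 to 50 in VEL against WTL, from 44 to 92 in DMD against WCD and from 36 to 77 in DML against WCL, with the lowest values without VEL replicate 2, DMD replicate 2 and DML replicate 3. The number of all genes called lower changed too. It was 63, 250 and 259 without these 3 libraries in turn, against 243, 508 and 559 in the full fits. Called in the full fit and in all 6 reduced fits were 22, 39 and 34 members, and negative in all 7 fits were 116, 119 and 112. When the 3 libraries that stood apart (DMD replicate 2, DML replicate 2 and WCL replicate 1) were left out together, 76 members were called in DMD against WCD and 45 in DML against WCL, with 494 and 251 of all genes called lower.

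**Figure D2:**
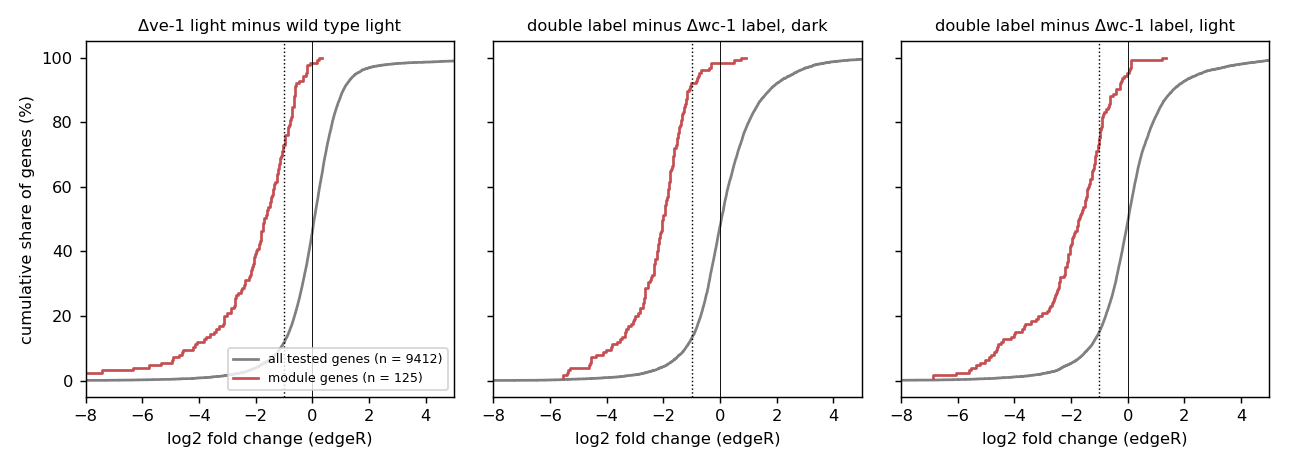
Cumulative share of genes (%) by log2 fold change in the 3 comparisons for loss of *ve-1*, for all 9412 genes tested (grey) and the 125 module genes (red), with a dotted line at -1. The red curves lie left of the grey ones, with medians of -1.63, -1.99 and -1.67 against 0.06, 0.05 and 0.02; the horizontal axis is limited to -8 to 5.

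Counts by condition means followed the same comparisons. The ratio of means was at most 0.5 for 90 members in VEL against WTL (11.8% of all genes), 114 in DMD against WCD (13.2%) and 92 in DML against WCL (15.1%). All 3 libraries lacking *ve-1* were below all 3 libraries with it for 88, 113 and 69 members, against 10.8%, 23.6% and 11.1% of all genes, and for 59 members this held in all 3 comparisons (3.81%). The difference between the last pair of effects, light minus dark within the *wc-1* label, called 0 members in edgeR and 0 in DESeq2 and limma-voom, with 3 members (2.4%) at an unadjusted p under 0.05, against 4.02% of all genes.

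The *wc-1* label and light were compared next. WCD against WTD called 0 members in edgeR, where 0.0106% of all genes were called lower and 0% higher, with 8 members (6.4%) and 1.72% of all genes at an unadjusted p under 0.05. DESeq2 called 0 members and limma-voom with quality weights 4, where the latter called 50 of all genes lower and 31 higher. The median ratio of WCD to WTD was 0.938. As the WTD libraries helped to choose these genes, the counts and shares in WCD against WTD are a description only. Light likewise called 0 members in WCL against WCD and 0 in DML against DMD with edgeR (0% of all genes in either direction), with 19 and 16 members (15.2% and 12.8%) at an unadjusted p under 0.05, against 14.1% and 1.33% of all genes. DESeq2 called 3 and 0 members, and limma-voom 11 and 0. Of all genes, limma-voom called 121 lower and 165 higher in WCL against WCD, and 0 in DML against DMD. DESeq2 called 14 lower and 230 higher of its 10561 genes in WCL against WCD, and 0 and 2 in DML against DMD. Log2 fold changes were above 0 for 102 members in DML against DMD, with a median of 0.391 against -0.00458 over all genes tested. In WCL against WCD they were above 0 for 65 members, with a median of 0.0483 against -0.0722. Library medians of the members overlapped between DML (18.8% to 46.8% of the WTD mean) and DMD (13.7% to 30.8%). In the velvet mutant the light mean was above the dark mean for most members, with a median ratio of VEL to VED of 1.55, and all VEL libraries were above all VED libraries for 32 members (25.6%, against 9.21% of all genes). As the VED libraries were chosen to be low in these genes, this rise is a description only.

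A symbol or a product was found for 49 members, and 76 had neither. RefSeq gave a symbol to 15.2% of the members and 11.8% of all genes tested. By annotated product, 14 members act on cell wall polymers or carbohydrates, 14 in redox or lipid metabolism, 13 in signalling and development and 5 on nucleic acids or in the cell cycle; the rest of the 49 are *ve-1*, *sly-1* and NCU05841. Called lower in VEL against WTL, DMD against WCD and DML against WCL were 7, 10 and 10 of the 14 cell wall and carbohydrate genes, 4, 12 and 8 of the 14 redox and lipid genes, and 4, 10 and 5 of the 13 signalling genes. Among the 76 without annotation the counts were 30, 43 and 39. These groups were formed from the annotation of the members and carry no test.

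Several members make or modify the cell wall. The member with the highest wild type dark mean was *cps-1* (NCU00911, chromosome I, 6778872 to 6782745), which encodes a polysaccharide synthase. Its CPM was 1362, 556 and 6078 in the dark and 4769.8, 4345 and 3035 in the light in the wild type and 90.9, 239 and 425 in the dark and 304, 324 and 275 in the light in ∆*ve-1*. Under the *wc-1* label it was 1199, 625 and 547 in the dark and 5652, 3461 and 3243 in the light, and 66.9, 116 and 591 in the dark and 1909, 323 and 129 in the light without *ve-1* as well. The wild type dark libraries spread widely and WCD lay far below WCL, but VEL lay below WTL without overlap. The log2 fold change was -3.75 ± 1.0, adjusted p = 0.038 for VEL against WTL (13.4-fold lower by means), and -1.62 ± 0.92, adjusted p = 0.25 for DMD against WCD, where DMD replicate 3 lay within the range of WCD and the gene was called without it (-3.11, adjusted p = 0.043). For DML against WCL it was -2.39 ± 0.95, adjusted p = 0.10, and the gene was called without DML replicate 1 (-4.19, adjusted p = 0.011). The call in VEL against WTL was lost without WTL replicate 1 (adjusted p = 0.11) and without VEL replicate 1 (0.079), 2 (0.15) or 3 (0.13).

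Mannose-1-phosphate guanyltransferase, which makes the GDP-mannose used in protein mannosylation and wall mannans, is encoded by *mpg-1* (NCU06003, chromosome VI, 3118714 to 3121671). Its CPM was steady in the wild type, at 279, 277 and 298 in the dark and 365, 194 and 304 in the light, and was 37.7, 49.04 and 51.9 in the dark and 93.5, 60.4 and 39.1 in the light in ∆*ve-1*. The libraries labelled ∆*wc-1* held 301, 288 and 288 in the dark and 170.2, 372 and 371 in the light and those labelled ∆*ve-1* ∆*wc-1* 60.3, 49.6 and 63.3 in the dark and 172, 58.8 and 88.98 in the light. No library lacking *ve-1* reached those carrying it, except that DML replicate 1 exceeded WCL replicate 1, which stood apart. Log2 fold changes were -2.16 ± 0.40, adjusted p = 0.0039 in VEL against WTL, -2.34 ± 0.40, adjusted p = 0.0012 in DMD against WCD and -1.51 ± 0.39, adjusted p = 0.015 in DML against WCL; the last call was lost without DML replicate 2 (0.076) or 3 (0.078).

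The gene *gam-1* (NCU01824), for the galactopyranose mutase that supplies galactofuranose, had means of 233 CPM in WTD, 257 in WTL and 34.4 and 87.5 in VED and VEL. A call was made in DMD against WCD (-2.71 ± 0.54, adjusted p = 0.0033) and in DML against WCL (-1.96 ± 0.52, adjusted p = 0.017), the latter lost without DML replicate 2 or 3 (0.083 in each). In VEL against WTL it was not called by edgeR with all libraries (-1.55 ± 0.51, adjusted p = 0.087). There *gam-1* was called without VEL replicate 1 (0.037), by DESeq2 (0.023) and by limma-voom (9.1e-04). It was also called with the share of the 10 most abundant genes as a covariate (9.0e-04). For *ncw-2* (NCU01752, chromosome II, 2546457 to 2549054), a non-anchored cell wall protein, CPM was 47.8, 33.2 and 43.6 in the dark and 24.96, 18.4 and 19.9 in the light in the wild type and 6.92, 5.62 and 4.52 in the dark and 2.96, 4.05 and 2.64 in the light in ∆*ve-1*. It was 39.2, 35.8 and 33.5 in the dark and 198, 68.4 and 93.9 in the light among the libraries labelled ∆*wc-1*, and 12.6, 8.34 and 5.14 in the dark and 26.5, 11.1 and 16.3 in the light in those labelled ∆*ve-1* ∆*wc-1*. The groups did not overlap in any of the 3 comparisons, and the highest values were those of WCL. Its log2 fold changes of -2.71 ± 0.41, adjusted p = 9.5e-04, -2.06 ± 0.40, adjusted p = 0.0028 and -2.74 ± 0.41, adjusted p = 3.6e-04, in the order given above, were called with every library left out in turn. The last call was lost with edgeR on the 6 libraries of the comparison alone (0.13).

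Of the mannosidases, *gh47-5* (NCU07067) had means of 560.5, 303, 108 and 264 CPM in WTD, WTL, VED and VEL, so that VEL was close to WTL (log2 fold change -0.20 ± 0.53, adjusted p = 0.88). DMD against WCD called it (-1.67 ± 0.54, adjusted p = 0.046), where only the fit without DMD replicate 3 kept the call and the adjusted p otherwise reached 0.21 (without DMD replicate 2). In DML against WCL (-1.98 ± 0.55, adjusted p = 0.021) the call was lost without DML replicate 2 (0.076) or 3 (0.095). The pectate lyase gene *ply-1* (NCU06326) was low in every condition, at 6.62, 2.01 and 37.2 CPM in WTD and 9.74, 13.7 and 2.29 in WTL, and at 0, 0 and 0.779 and 0.116, 0 and 0 in VED and VEL. The wild type dark libraries differed widely, but no library of VEL, DMD or DML reached its counterparts with *ve-1*. It was called in all 3 comparisons, with adjusted p values of 0.024, 0.038 and 0.043. No fits with a library left out are given for *ply-1*, which was outside the set of named genes described below.

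A second set of members acts in hyphal fusion and female development. The transcription factor gene *adv-1* (NCU07392, chromosome I, 6094075 to 6098544) is required for cell fusion and for fertile protoperithecia. Wild type libraries held 109, 101 and 122 in the dark and 64.9, 66.7 and 75.96 CPM in the light and ∆*ve-1* libraries 16.2, 20.2 and 28.5 in the dark and 22.7, 20.9 and 16.05 in the light. The libraries labelled ∆*wc-1* held 98.7, 82.4 and 99.8 in the dark and 190.1, 132 and 109 in the light, and those labelled ∆*ve-1* ∆*wc-1* 19.6, 18.7 and 30.2 in the dark and 50.3, 20.2 and 26.5 in the light. All 12 libraries lacking *ve-1* lay below all 12 carrying it. The log2 fold changes of -1.8 ± 0.32, adjusted p = 0.0031 in VEL against WTL, -2.03 ± 0.33, adjusted p = 7.1e-04 in DMD against WCD and -2.15 ± 0.33, adjusted p = 4.1e-04 in DML against WCL were called with every library left out in turn. The call in VEL against WTL was lost with library totals (0.15). That in DML against WCL was lost with edgeR on the 6 libraries of the comparison alone (0.14).

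Of the hyphal anastomosis genes, *ham-12* (NCU03960, chromosome VI, 2245319 to 2246658) was at 56.5, 49.5 and 98.2 in the dark and 32.3, 70.5 and 10.4 CPM in the light in the wild type and 6.07, 5.12 and 8.84 in the dark and 3.496, 4.99 and 6.95 in the light in ∆*ve-1*. It was at 53.02, 40.7 and 42.4 in the dark and 104, 95.4 and 71.8 in the light among the libraries labelled ∆*wc-1* and at 3.73, 6.61 and 4.99 in the dark and 16.6, 3.18 and 5.65 in the light in those labelled ∆*ve-1* ∆*wc-1*. WTL replicate 3 was the lowest library carrying *ve-1*, and the groups did not overlap in any of the 3 comparisons. Calls were made in VEL against WTL (-2.88 ± 0.59, adjusted p = 0.0087, lost without VEL replicate 2 at 0.062), in DMD against WCD (-3.15 ± 0.60, adjusted p = 0.0024) and in DML against WCL (-3.41 ± 0.60, adjusted p = 0.0013). With edgeR on the 6 libraries of a comparison alone, *ham-12* was not called in VEL against WTL (0.050) or DML against WCL (0.13). It overlaps NCU03961, which is no member, by 427 bases. For *ham-11* (NCU04732) the means were 72.2, 38.4, 11.7 and 11.7 CPM in WTD, WTL, VED and VEL. Calls were made in DMD against WCD (-2.03 ± 0.56, adjusted p = 0.021) and DML against WCL (-1.72 ± 0.55, adjusted p = 0.043) only with all libraries or with 2 of the 6 left-out libraries of each comparison: the first call was lost without WCD replicate 1 (0.066) or 3 (0.063) or DMD replicate 1 (0.065) or 2 (0.10), and the second without WCL replicate 2 (0.10) or 3 (0.10) or DML replicate 2 (0.16) or 3 (0.18). VEL against WTL was not called by edgeR with all libraries (-1.72 ± 0.55, adjusted p = 0.076). There *ham-11* was called without VEL replicate 1 (0.043), by DESeq2 (0.019) and by limma-voom (0.0011). It was also called with the share of the 10 most abundant genes as a covariate (3.4e-04).

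These 3 genes belong to a list of 18 genes of the hyphal fusion sensor and cell wall integrity pathway. Of the 18, 4 were called lower in VEL against WTL, 9 in DMD against WCD and 7 in DML against WCL, and 0 higher. Medians over the 18 were -1.12, -1.05 and -1.11 on the log2 scale. These counts and medians include *adv-1*, *ham-11* and *ham-12*, which the criteria chose as low in VED. Of all genes tested, 2.58%, 5.4% and 5.94% were called lower and 1.74%, 7.09% and 6.6% higher. The same shares stand beside the counts of the other lists below. Other genes of the list of 18 were as low as the members in ∆*ve-1* in the dark but fell outside the light criterion. The sensor genes *ham-7* and *ham-8* and the fusion gene *ham-6* had ratios of VED to WTD of 0.131, 0.10 and 0.0851, with ratios of WTL to WTD of 0.455, 0.285 and 0.312. The recognition gene *doc-2* had 0.103 and 0.484. The kinase genes of the same pathway had higher ratios of VED to WTD of 0.786 for *mik-1*, 0.605 for *mek-1* and 0.327 for *mak-1*.

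**Figure D3:**
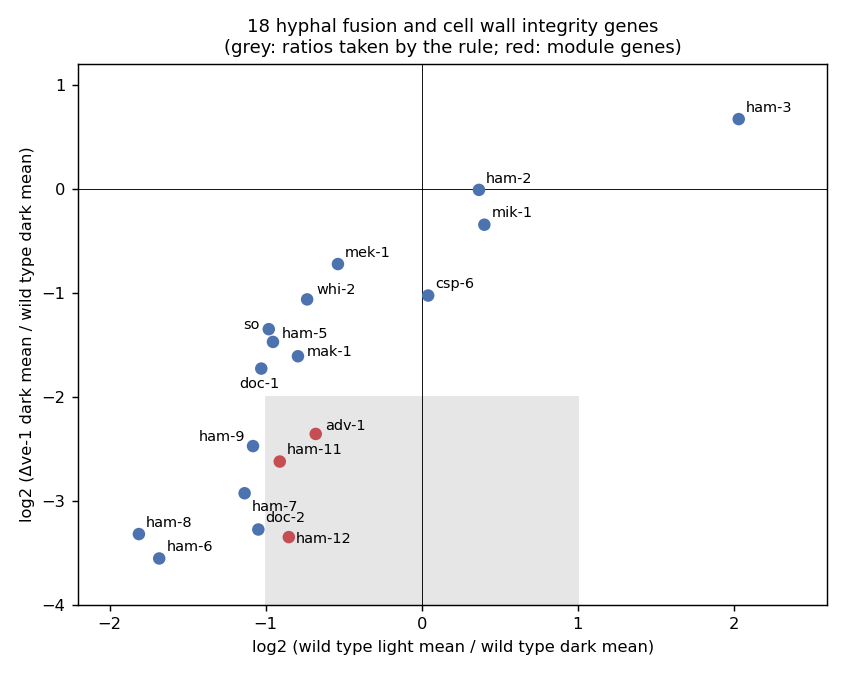
Ratio of VED to WTD means against ratio of WTL to WTD means, both as log2, for the 18 listed genes of hyphal fusion and cell wall integrity. The grey area holds the ratios that the criteria took and the 3 red points are *adv-1*, *ham-11* and *ham-12*; *ham-6*, *ham-7*, *ham-8*, *ham-9* and *doc-2* are as low on the vertical axis but left of the area.

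The NADPH oxidase gene *nox-1* (NCU02110, chromosome I, 1253810 to 1257287), needed for fusion and female fertility, had 77.5, 55.5 and 65.6 in the dark and 21.3, 34.8 and 44.7 CPM in the light in the wild type and 12.2, 19.7 and 14.6 in the dark and 29.7, 16.8 and 13.8 in the light in ∆*ve-1*. In the libraries labelled ∆*wc-1* it was 79.9, 67.2 and 65.04 in the dark and 21.5, 104 and 79.4 in the light, and in those labelled ∆*ve-1* ∆*wc-1* 30.9, 22.9 and 26.9 in the dark and 43.1, 18.1 and 41.2 in the light. The light groups overlapped in both light comparisons, and WCL replicate 1 was the lowest of its group. It was called in DMD against WCD (-1.39 ± 0.45, adjusted p = 0.044) but in none of the 6 fits with a library of that comparison left out (adjusted p 0.068 without DMD replicate 3 to 0.17 without DMD replicate 2; 0.13, 0.081 and 0.10 without WCD replicates 1, 2 and 3, and 0.087 without DMD replicate 1), nor with the replicate number as a block (0.063). The other comparisons gave -0.74 ± 0.44, adjusted p = 0.37 in VEL against WTL and -1.0 ± 0.44, adjusted p = 0.14 in DML against WCL, which was called without WCL replicate 1 (-1.42, adjusted p = 0.021).

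Abundant perithecial protein, a product of maturing female structures, is encoded by *app* (NCU04533, chromosome VII, 1539827 to 1540778). Its CPM was 148, 629.9 and 16.7 in the dark and 281, 807 and 244 in the light in the wild type, 0.719, 0.3304 and 1.79 in the dark and 10.7, 16.9 and 16.5 in the light in ∆*ve-1*, 249, 460.3 and 688 in the dark and 0, 94.3 and 284 in the light among the libraries labelled ∆*wc-1* and 1.45, 30.9 and 1.26 in the dark and 0.976, 0.754 and 3.92 in the light in those labelled ∆*ve-1* ∆*wc-1*. Libraries carrying *ve-1* spread from 0 to 807 CPM, and WCL replicate 1 was at 0. The gene was not called in VEL against WTL by edgeR with all libraries (-4.92 ± 1.65, adjusted p = 0.091), although all VEL libraries were below all WTL libraries. There *app* was called by DESeq2 (0.013), by limma-voom (0.010) and by edgeR on the 6 libraries of the comparison alone (0.0033). A covariate for the 10 most abundant genes also gave that call (0.046). It was called in DMD against WCD (-5.39 ± 1.69, adjusted p = 0.039) and in DML against WCL (-6.05 ± 1.74, adjusted p = 0.026). The first of these 2 calls was lost without WCD replicate 1 (0.066), 2 (0.065) or 3 (0.10) or DMD replicate 1 (0.12) or 3 (0.077). The second was lost without WCL replicate 3 (0.067) or DML replicate 1 (0.065), 2 (0.097) or 3 (0.063). With the covariate the first was also lost (0.18), and the second by limma-voom (0.13) and edgeR on the 6 libraries (0.27). The adjacent member NCU04532, named for its position after the values were seen, which overlaps *app* by 157 bases, was called in all 3 comparisons (-2.23, -3.05 and -2.64 on the log2 scale).

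Of the list of 11 genes of female development and mating, *app* and *nox-1* were the only members, and 1 gene was called lower in VEL against WTL, 3 in DMD against WCD and 2 in DML against WCL, while 0, 1 and 2 were called higher. The pheromone precursor gene *ccg-4* was at 247 CPM in WTD and 7929 in VED, and the regulator gene *vib-1* at 211 and 11.97.

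**Figure D4:**
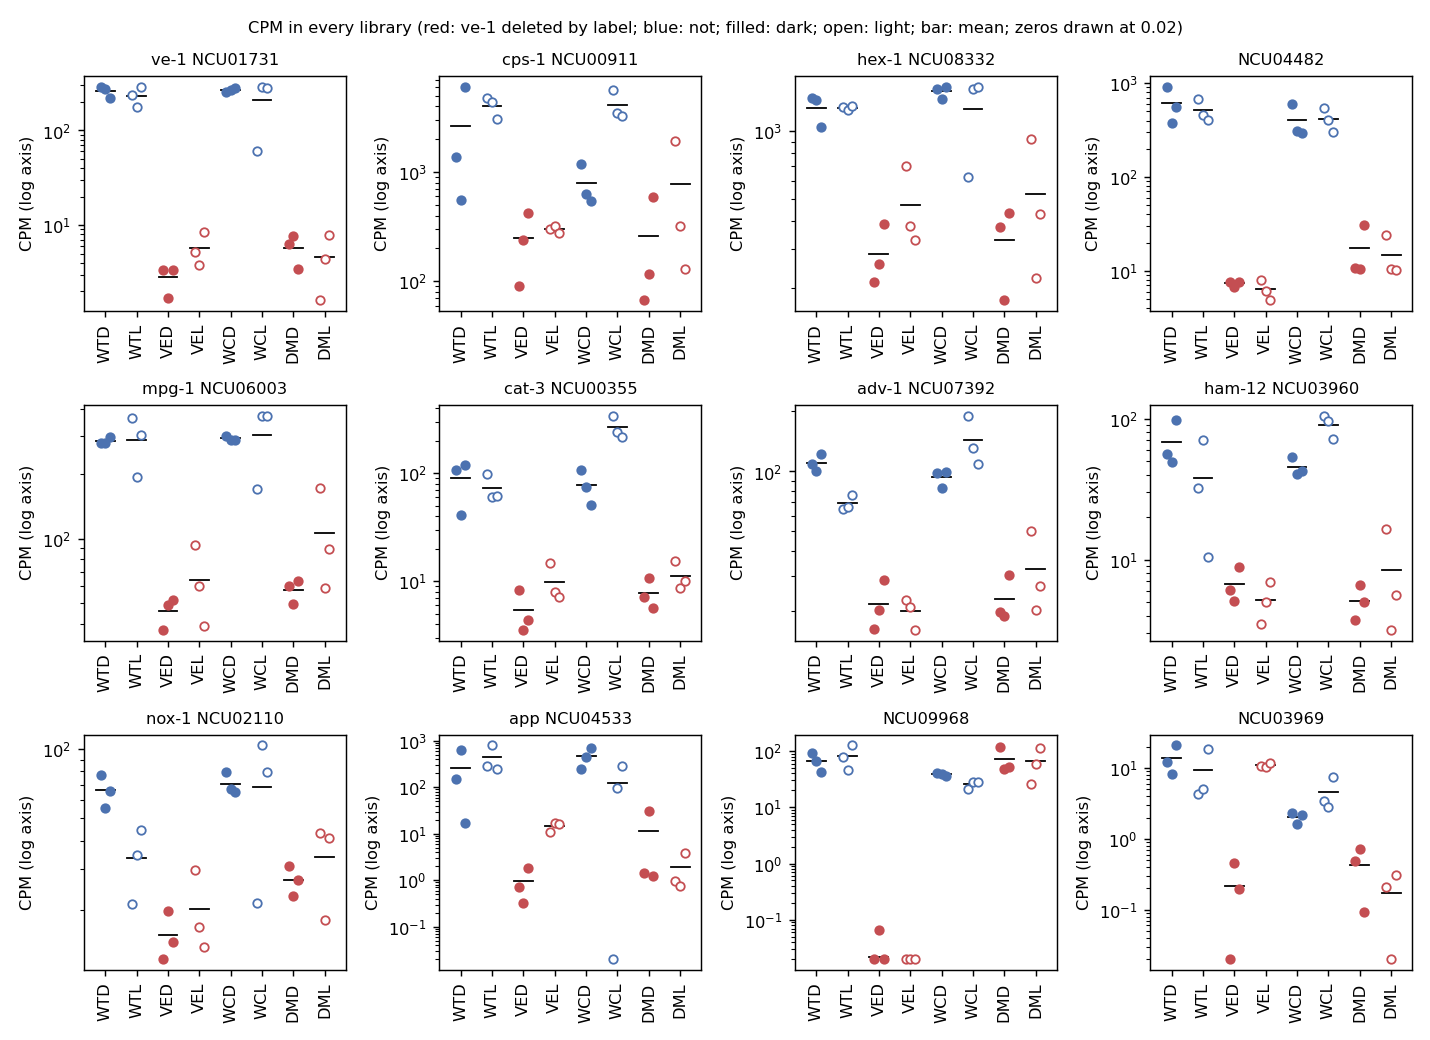
CPM (log axis) of 12 of the named genes in all 24 libraries by condition code, red for libraries labelled as lacking *ve-1* and blue for the rest, filled in the dark and open in the light, with a bar at each mean and zeros drawn at 0.02. For *adv-1* all red points lie below all blue points; for NCU09968 only the VED and VEL points are low (0 to 0.0661 CPM); for NCU03969 the VEL points (10.3 to 11.97 CPM) lie within the range of WTL.

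Woronin bodies, the organelles that plug septal pores after injury, are built of the product of *hex-1* (NCU08332, chromosome I, 5727235 to 5728917). CPM was 1401, 1379 and 1049 in the dark and 1282, 1242 and 1301 in the light in the wild type and 213, 257 and 388 in the dark and 701, 381 and 329 in the light in ∆*ve-1*. It was 1544, 1389 and 1583 in the dark and 628, 1548 and 1579.8 in the light among the libraries labelled ∆*wc-1* and 374, 177 and 435 in the dark and 921, 223 and 431 in the light in those labelled ∆*ve-1* ∆*wc-1*. VEL was below WTL and DMD below WCD without overlap, while DML replicate 1 exceeded WCL replicate 1. DMD against WCD was called (-2.2 ± 0.50, adjusted p = 0.0075) with every library left out in turn, though not with library totals (0.061), while VEL against WTL gave -1.44 ± 0.49, adjusted p = 0.094 and DML against WCL -1.25 ± 0.48, adjusted p = 0.091. DML against WCL was called without WCL replicate 1 (0.045) or DML replicate 1 (-1.94, adjusted p = 0.014), and both light comparisons were called by DESeq2 (0.017 and 0.037) and limma-voom (0.0021 and 0.0018). The gene shares 392 bases with NCU16405, and counting was by strand.

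Redox and lipid genes included *cat-3* (NCU00355, chromosome III, 3561379 to 3564584), a catalase of growing hyphae. Its CPM was 108, 40.99 and 119.7 in the dark and 98.9, 59.8 and 61.8 in the light in the wild type and 8.27, 3.57 and 4.44 in the dark and 14.7, 8.06 and 7.15 in the light in ∆*ve-1*. In the libraries labelled ∆*wc-1* it was 107, 73.99 and 50.999 in the dark and 339.6, 243 and 216 in the light, and in those labelled ∆*ve-1* ∆*wc-1* 7.12, 10.7 and 5.68 in the dark and 15.3, 8.63 and 10.003 in the light. All 12 libraries lacking *ve-1* were below all 12 others, and the 3 WCL libraries were the highest. Called with every library left out in turn, it was 7.38-fold lower in VEL than in WTL (log2 fold change -2.88 ± 0.45, adjusted p = 0.0013), 9.87-fold lower in DMD than in WCD (-3.31 ± 0.46, adjusted p = 2.2e-04) and 23.5-fold lower in DML than in WCL (-4.55 ± 0.49, adjusted p = 2.7e-05). Of the 6 listed catalase and superoxide dismutase genes it was the only member and the only gene called lower in any of the 3 comparisons. The spore catalase *cat-1* was at 288 CPM in WTD and 969 in VED, and *cat-4* and *sod-2* were called higher in DMD against WCD.

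Inositol-3-phosphate synthase, the first enzyme of inositol synthesis, is encoded by *inl* (NCU06666). It was at 230.2, 304, 34.2 and 82.8 CPM in WTD, WTL, VED and VEL, and at 181, 206, 28.7 and 69.4 in WCD, WCL, DMD and DML. DMD against WCD was called (-2.66 ± 0.55, adjusted p = 0.0043) with every library left out in turn. VEL against WTL was called (-1.88 ± 0.53, adjusted p = 0.047) but not without WTL replicate 1 (0.18) or 3 (0.079) or VEL replicate 2 (0.21) or 3 (0.19). DML against WCL was not called by edgeR with all libraries (-1.57 ± 0.53, adjusted p = 0.053). There *inl* was called without WCL replicate 1 (0.040) or DML replicate 1 (0.0020), by DESeq2 (0.020) and by limma-voom (0.0011). A replicate block (0.024), a filter of 5 CPM (0.043) and a covariate for the 10 most abundant genes (0.016) also gave that call. Of the sterol pathway, *erg-13* (NCU03922), for hydroxymethylglutaryl-CoA synthase, and *erg-3* (NCU04983), annotated as a lathosterol oxidase, were called in DMD against WCD (-1.91 ± 0.52, adjusted p = 0.019, and -1.64 ± 0.41, adjusted p = 0.013) and in DML against WCL (-2.02 ± 0.52, adjusted p = 0.014, and -1.79 ± 0.41, adjusted p = 0.0073). Neither was called in VEL against WTL (-1.24 ± 0.51, adjusted p = 0.17, and -0.62 ± 0.40, adjusted p = 0.41), although *erg-13* was without VEL replicate 1 (0.027), by limma-voom (0.0078) and with a covariate for the 10 most abundant genes (0.013). In DMD against WCD both calls were lost without WCD replicate 1 (0.090 and 0.058), DMD replicate 1 (0.053 and 0.053) or DMD replicate 2 (0.091 and 0.082), and *erg-13* lost its call in DML against WCL without DML replicate 2 (0.071) or 3 (0.060).

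Phosphoenolpyruvate carboxykinase, which opens gluconeogenesis and is encoded by *acu-6* (NCU09873), had 1353, 54.6 and 83.8 CPM in DML and 671, 378 and 690.4 in WCL. DML replicate 1 was the highest library of the series, and edgeR with all libraries did not call the gene in any of the 3 comparisons (-1.86, -1.99 and -0.22 on the log2 scale). By limma-voom *acu-6* was called in VEL against WTL (0.040) and in DMD against WCD (0.0025), the latter also by edgeR on the 6 libraries (0.025). In DML against WCL the lack of a call rested on DML replicate 1, without which the value was -3.07 (adjusted p = 0.0088). The Argonaute gene of quelling, *qde-2* (NCU04730), was called by edgeR with all libraries only in DMD against WCD (-1.54 ± 0.39, adjusted p = 0.013). That call was lost without WCD replicate 3 (0.065) or DMD replicate 1 (0.067) or 2 (0.079). In VEL against WTL *qde-2* was called by limma-voom (0.022). The phytochrome gene *phy-2* (NCU05790), for a red-light receptor, was called in VEL against WTL (-2.39 ± 0.50, adjusted p = 0.011) and DMD against WCD (-2.06 ± 0.50, adjusted p = 0.0099) and was the only member among 6 listed photoreceptor genes. Its calls were lost without VEL replicate 2 (0.073) or 3 (0.070), and without DMD replicate 2 (0.065). DML against WCL was called only without WCL replicate 1 (0.038) or by limma-voom (0.039). Of those 6 genes, 1, 1 and 0 were called lower in the 3 comparisons and 0, 2 and 3 higher.

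The velvet list held 4 genes, counting *lae-1* with the velvet genes proper. Only *ve-1* was a member, and 1, 2 and 1 were called lower. The velvet gene *vos-1* (NCU05964) was at 91.6 ± 29.4 CPM in WTD and 6.37 ± 4.597 in VED (SD, n = 3) but had a light ratio of 0.404. None of the 16 listed melanin genes and none of the 11 conidiation markers was a member. Of the melanin genes 1, 2 and 3 were called lower and 0, 1 and 0 higher, and of the conidiation markers 0 were called lower (edgeR) and 0, 4 and 5 higher. The summed conidiation markers were thus higher without *ve-1* in both comparisons under the *wc-1* label, but lower in VEL than in WTL, where the members were lower too, and the part of spore content in the results was not tested.

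Among the 6 highest members were genes without annotation. NCU04482 (chromosome IV, 3213210 to 3215130) was at 921, 379 and 557 in the dark and 676, 454 and 407 CPM in the light in the wild type and 7.64, 6.74 and 7.64 in the dark and 7.96, 6.15 and 4.82 in the light in ∆*ve-1*. It was at 607, 309.9 and 293 in the dark and 542, 409.6 and 299.6 in the light among the libraries labelled ∆*wc-1* and 10.7, 10.5 and 30.96 in the dark and 23.8, 10.4 and 10.2 in the light in those labelled ∆*ve-1* ∆*wc-1*. The 12 libraries with *ve-1* were all above the 12 without it, with a wide gap between them. It was 81.2-fold lower in VEL than in WTL (-6.34 ± 0.58, adjusted p = 1.2e-06), 23.2-fold lower in DMD than in WCD (-4.54 ± 0.53, adjusted p = 4.8e-05) and 28.2-fold lower in DML than in WCL (-4.81 ± 0.54, adjusted p = 3.6e-05), each called with every library left out in turn. By contrast NCU09693 (chromosome V, 815771 to 817560), also among the 6 highest members, was at 69.2, 142 and 176 in the dark and 409, 231 and 209 CPM in the light in ∆*ve-1* and 217, 96.6 and 546 in the dark and 877, 297 and 331 in the light among the libraries labelled ∆*ve-1* ∆*wc-1*. None of the 3 comparisons called it (-0.34, -0.33 and -0.21 on the log2 scale). Nor was *pgi-2* (NCU02797, at -1.13, -1.34 and -0.84) called by edgeR with all libraries. In DMD against WCD *pgi-2* was called without DMD replicate 3 (-1.66, adjusted p = 0.040) and by DESeq2 (0.025). By limma-voom *pgi-2* was called in all 3 comparisons (0.0033, 7.8e-04 and 0.023). With the share of the 10 most abundant genes as a covariate it was called in VEL against WTL (6.0e-04).

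Among the 6 lowest ratios of VED to WTD were NCU17138 (ratio 0.00493) and NCU17135 (0.00504), both of chromosome VI. NCU17138 was at 12.6, 5.92 and 39.9 CPM in WTD and 33.3, 23.2 and 7.49 in WTL, against 0, 0.132 and 0.156 and 0.657, 0.755 and 1.05 in VED and VEL. NCU17135 was called in VEL against WTL (-3.81 ± 0.90, adjusted p = 0.022, lost without VEL replicate 2 at 0.073 or 3 at 0.10), in DMD against WCD (-4.12 ± 0.91, adjusted p = 0.0061) and in DML against WCL (-5.22 ± 0.95, adjusted p = 0.0016). For NCU17138 the call held with every library left out only in DML against WCL (-5.58 ± 1.15, adjusted p = 0.0039). Its calls in VEL against WTL (-4.7 ± 1.09, adjusted p = 0.020) and DMD against WCD (-3.52 ± 1.07, adjusted p = 0.034) were each lost in 4 of 6 reduced fits, the former without WTL replicate 1 (0.074) or VEL replicate 1 (0.051), 2 (0.12) or 3 (0.080) and the latter without WCD replicate 1 (0.089) or 3 (0.087) or DMD replicate 1 (0.12) or 2 (0.13).

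The 2 members with the lowest ratios were the exception to the *ve-1* label. NCU09968 (chromosome VI, 309546 to 315476) and *sly-1* (NCU09969, chromosome VI, 314113 to 320071), the transposase gene of the Sly1-1 element, are adjacent and overlap by 1364 bases. NCU09968 was at 90.6, 65.7 and 42.4 in the dark and 76.9, 45.8 and 127 CPM in the light in the wild type and at 0, 0.0661 and 0 in the dark and 0, 0 and 0 in the light in ∆*ve-1*. It was at 40.1, 39.2 and 35.9 in the dark and 21.6, 28.7 and 27.8 in the light among the libraries labelled ∆*wc-1* and 117, 47.6 and 51.9 in the dark and 26.4, 58.3 and 113 in the light in those labelled ∆*ve-1* ∆*wc-1*. Counts of *sly-1* were 0 in all 6 ∆*ve-1* libraries, while its CPM was 23.3, 17.9 and 23.7 in the dark and 21.7, 23.05 and 32.1 in the light in the wild type, 10.05, 12.8 and 9.82 in the dark and 17.4, 8.88 and 5.74 in the light among the libraries labelled ∆*wc-1* and 17.8, 14.8 and 13.4 in the dark and 9.31, 7.75 and 16.1 in the light in those labelled ∆*ve-1* ∆*wc-1*. Both genes were thus counted in every library except those of ∆*ve-1*, where NCU09968 had 2 counts in all. With 3 counts per library as the floor, NCU09968 was at least 714-fold lower in VEL than in WTL and *sly-1* at least 219.7-fold lower, and the floor covers counting error only. In DMD against WCD and DML against WCL neither was called by edgeR with all libraries (0.91 ± 0.50, adjusted p = 0.24 and 1.34 ± 0.51, adjusted p = 0.088 for NCU09968, and 0.50 ± 0.40, adjusted p = 0.45 and 0.06 ± 0.40, adjusted p = 0.95 for *sly-1*). NCU09968 was called higher in DML against WCL without DML replicate 1 (1.72, adjusted p = 0.023) and by DESeq2 (0.047). It was also called there with the share of the 10 most abundant genes as a covariate (0.046), and in DMD against WCD by limma-voom (1.23, adjusted p = 0.0018). Whether the 2 genes are present in the genome of the ∆*ve-1* strain was not tested.

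Some members had a VEL mean nearer to that of WTL. The VEL mean was at least 0.5 of the WTL mean for 35 members and above it for 3, *dam-1* (NCU10387), NCU03969 and NCU04025. The monooxygenase gene *dam-1* was at 26.3, 22.9 and 15.9 in the dark and 12.2, 17.6 and 7.49 CPM in the light in the wild type and 2.697, 3.37 and 4.52 in the dark and 21.8, 11.8 and 13.6 in the light in ∆*ve-1*, and at 3.07, 0.763 and 3.69 in the dark and 5.11, 3.52 and 2.94 in the light among the libraries labelled ∆*ve-1* ∆*wc-1*. The VEL libraries lay within or near the range of WTL and above all VED libraries (0.34 ± 0.50, adjusted p = 0.77 in VEL against WTL). DMD against WCD called it (-1.83 ± 0.52, adjusted p = 0.025), but not without WCD replicate 1 (0.14) or DMD replicate 1 (0.057) or 2 (0.12).

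NCU03969 (chromosome VI, 2278121 to 2278660) was the member for which edgeR made a call between VEL and VED, a count of 1 beside 0.085% of all genes higher and 0.0212% lower, and a description only since the VED libraries chose the members. Its CPM was 12.1, 8.19 and 21.1 in the dark and 4.27, 5.15 and 18.7 in the light in the wild type and 0, 0.463 and 0.195 in the dark and 10.9, 10.3 and 11.97 in the light in ∆*ve-1*. The libraries labelled ∆*wc-1* held 2.29, 1.65 and 2.21 in the dark and 3.49, 2.84 and 7.41 in the light, and those labelled ∆*ve-1* ∆*wc-1* 0.4903, 0.712 and 0.0941 in the dark and 0.208, 0 and 0.313 in the light. It was not called in VEL against WTL (0.24 ± 0.81, adjusted p = 0.92) and was called in DML against WCL (-4.6 ± 0.98, adjusted p = 0.0047), with every library left out in turn. The gene overlaps NCU17113 by 537 bases, and that gene, which is no member, was at 1.89 CPM in WTD, 296 in WTL, 1.103 in VED and 349 in VEL. The part of reads from the overlap in the level of NCU03969 was not tested. NCU04025, NCU02719, NCU09772 and NCU05957, with the next highest ratios of VEL to WTL (1.11, 0.947, 0.882 and 0.879), were called in none of the 3 comparisons with all libraries. In DMD against WCD, NCU09772 (-2.24, adjusted p = 0.034) and NCU05957 (-2.62, adjusted p = 0.038) were called without DMD replicate 3, and by limma-voom (0.0015 and 0.0041). NCU04025 was called there by DESeq2 (0.0499) and limma-voom (0.0041), by edgeR on the 6 libraries (0.026), and without the 3 libraries that stood apart (0.023).

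A few members, picked here after their values were seen, were high in light under the *wc-1* label. The monooxygenase gene NCU08747 was at 239, 23.6 and 25.6 CPM in WCL, against 10.9, 9.41 and 6.55 in WCD and 1.04, 1.005 and 0.438 in DML. WCL replicate 1 was far above the other WCL libraries, and DML was below all of them. The P450 gene *cyp450-9* (NCU05185) was at 493, 104 and 89.7 in WCL and 65.002, 48.7 and 62.5 in WCD. NCU02884 was at 532, 10.2 and 9.34 CPM in DML, so that replicate 1 alone raised the mean above that of WCL, and its log2 fold change in DML against WCL was 1.2 with that library and -3.03 without it. No test is given here for these 3 genes, as they were picked for their values, and calls of NCU02884 under the alternatives below are a description only. NCU02885, which is no member, overlaps NCU02884 by 1421 bases.

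Position was examined from the coordinates of assembly NC12. The members lie on all 7 chromosomes, with 21 (16.8%) on chromosome VI and 18 (14.4%) on chromosome VII, which hold 10.1% and 10.7% of the genes tested. The median gene length was 2538 bases, against 2413 bases for genes of at least 10 CPM in WTD. Members no more than 3 genes from the next member numbered 22, in 10 runs, and 26 members overlapped another annotated gene. The longest run, on chromosome VII from 3977446 to 3995298, holds 5 genes, of which NCU05832, NCU05833, NCU05835 and *gh47-4* (NCU05836), a mannosidase gene, are members.

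In that run all 5 genes had negative log2 fold changes in the 3 comparisons. NCU05833 was at 77.9, 75.7 and 82.9 in the dark and 67.2, 76.5 and 63.7 CPM in the light in the wild type and 5.66, 18.5 and 17.5 in the dark and 23.2, 13.5 and 13.9 in the light in ∆*ve-1*. It was at 77.3, 83.8 and 83.9 in the dark and 26.4, 92.6 and 84.2 in the light among the libraries labelled ∆*wc-1* and 8.93, 8.95 and 21.4 in the dark and 24.01, 9.296 and 14.3 in the light in those labelled ∆*ve-1* ∆*wc-1*. WCL replicate 1 was the lowest of its group but above all DML libraries, and the groups of this gene did not overlap in any comparison. NCU05833, NCU05835 and *gh47-4* were called in all 3 comparisons, and NCU05832 in DMD against WCD (-2.81 ± 0.71, adjusted p = 0.013, lost without DMD replicate 1 at 0.067 or 2 at 0.079). NCU05832 was also called in DML against WCL without DML replicate 1 (-3.85, adjusted p = 7.3e-04, against -2.04 ± 0.69, adjusted p = 0.055 with it), by DESeq2 (0.014) and by limma-voom (0.0013). In DMD against WCD the other 3 were called with every library left out in turn (-2.64, -3.33 and -2.39 on the log2 scale), and in VEL against WTL each lost its call without WTL replicate 1, VEL replicate 2 or VEL replicate 3 (adjusted p up to 0.12, 0.16 and 0.12), and 1 of them each also without WTL replicate 3 (NCU05835, 0.051) or WTL replicate 2 (*gh47-4*, 0.059). DML against WCL lost the call of NCU05835 without DML replicate 3 (0.064) and that of *gh47-4* without DML replicate 2 (0.075) or 3 (0.093). NCU05834, between them, had a WTD mean of 3.57 CPM, under the minimum of the criteria, and a VED mean of 0.104 CPM.

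**Figure D5:**
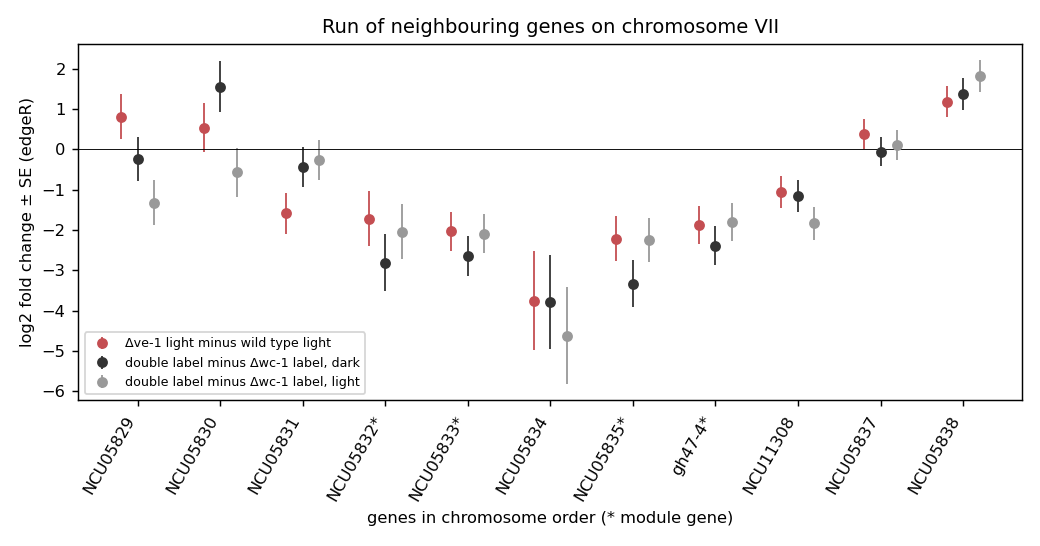
Log2 fold changes (± SE) in the 3 comparisons for loss of *ve-1* along the run on chromosome VII, with 3 flanking genes on either side, in chromosome order; an asterisk marks module genes. The 5 genes from NCU05832 to *gh47-4* are all below 0, whereas the flanking genes lie on both sides of it.

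Further along the same chromosome, NCU05841 (chromosome VII, 4019080 to 4021194, annotated UMTA), also picked after its values were seen, was at 135, 72.5 and 438 in the dark and 227, 166 and 88.6 CPM in the light in the wild type and 2.52, 6.21 and 4.91 in the dark and 9.35, 9.71 and 9.87 in the light in ∆*ve-1*. It was at 168, 118 and 116 in the dark and 585, 219.7 and 247 in the light among the libraries labelled ∆*wc-1* and 1.66, 7.53 and 7.09 in the dark and 19.7, 3.18 and 2.88 in the light in those labelled ∆*ve-1* ∆*wc-1*. No library lacking *ve-1* reached those with it. Its log2 fold changes were -4.06, -4.63 and -5.34 in VEL against WTL, DMD against WCD and DML against WCL, given without a test.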

How the data were processed

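Strand-specific paired reads of poly(A) RNA were trimmed, mapped with STAR 2.7 to assembly NC12 and counted per gene with featureCounts, and the raw counts were deposited by the authors without normalization. All 24 columns were used, with 30246878 to 42697941 counts per library. Counts between 100 and 1000 were even in 59.8% to 93.3% of cases per library, so a count may not be an independent fragment. Filtering (filterByExpr over the 8 conditions), TMM scaling, a quasi-likelihood fit of all 24 libraries (16 residual degrees of freedom) and Benjamini-Hochberg adjustment over 9412 genes were done with edgeR 4.0.16 in R 4.3.3, and checked on simulated data. Errors of log2 fold changes are standard errors derived from the test, as the absolute log2 fold change divided by the square root of the quasi-likelihood F statistic. DESeq2 1.42.0, limma 3.58.1 (voom), RLE or library-total scaling, other filters and left-out libraries were alternatives. Libraries sharing a number deviated together in DMD and WCD (r = 0.27, 0.20 and 0.29), and a replicate block changed the count there from 80 to 76 members. Members, lists and tests were chosen with earlier results of these data known. Genes named were those on 7 lists (hyphal fusion and cell wall integrity, melanin, catalases and superoxide dismutases, velvet family with *lae-1*, photoreceptors, female development, conidiation), the 6 highest in WTD, the 6 lowest in VED/WTD, 3 on each side of that limit, those with a textbook role, and the 6 highest in VEL/WTL. Symbols came from RefSeq and the study's supplementary annotation. Figures were drawn with matplotlib.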

Additional observations from a re-analysis of the deposited data

Results flagged for a closer look

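The effect of *ve-1* loss in the light was compared between the libraries with and without the *wc-1* label, as (DML - WCL) - (VEL - WTL), a contrast added after the data were seen. Among the 125 members it was called for NCU09968 (difference of log2 effects 16.02 ± 1.19 (SE), adjusted p = 4.6e-07) and *sly-1* NCU09969 (13.03 ± 0.92, adjusted p = 4.9e-07), where 0.0531% of all genes were called higher and 0.0425% lower. Both were at or near 0 counts in every ∆*ve-1* library and were counted in every library labelled ∆*ve-1* ∆*wc-1*. The sizes of these fitted differences and their errors therefore depend on the prior count. Both calls were made in each of the 12 fits with a library left out, and DESeq2 and limma-voom called 3 and 2 members. Of all genes, DESeq2 called 71 lower and 113 higher, and limma-voom 22 and 36.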

How the results depend on the processing

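Membership depended on scaling and limits. The criteria took 121 genes with RLE factors (115 shared with the 125), but 198 with library totals alone, of which 44 were shared. TMM factors (0.659 to 0.90 in VED, 1.18 to 1.41 in WTD) differ between the 2 conditions that define the module: with library totals the median of all genes in VED against WTD was -0.81 on the log2 scale, against -0.05 with TMM. It was 0.38 against 0.06 in VEL against WTL, with members at -1.26 against -1.63, and -0.27 against 0.05 in DMD against WCD, with members at -2.21 against -1.99. A limit of 0.2 on the ratio of VED to WTD left 78 genes, a limit of 0.33 took 228, a light window of 0.67 to 1.5 left 66, and leaving out a library gave 102 to 183.

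For VEL against WTL, members called lower were 49, but 93 with limma-voom, 92 when library composition (the counts taken by 10 top genes) was a covariate and 22 with library totals; with a library left out they were 22 to 50, including 28 without WTL replicate 1 and 27 without VEL replicate 3. For DMD against WCD, 80 became 49 without DMD replicate 1 and DML replicate 3, 49 with library totals, and 44 to 92 with a library left out (52 without WCD replicate 3, 47 without DMD replicate 1). For DML against WCL, 65 became 2 with edgeR on the 6 libraries alone (14 of 9010 genes tested were lower), 36 without DMD replicate 1 and DML replicate 3, 34 with library totals, 37 with library totals and without DMD replicate 2, DML replicate 2 and WCL replicate 1, and 36 to 77 with a library left out (41 without DML replicate 2). Counts over all genes moved too. In VEL against WTL 243 were called lower, but 774 with limma-voom, 780 with the covariate and 86 with library totals. In DMD against WCD 508 became 273 without DMD replicate 1 and DML replicate 3, and 323 with library totals. In DML against WCL 559 became 236 and 239 in the same 2 settings, and 183 with library totals and without the 3 libraries that stood apart. The replicate block gave 43, 76 and 63 members, and in DMD against WCD it changed the call of no named gene but *nox-1*. The cause was not tested. Under the remaining alternatives these counts stayed within 1.5 times, and the members' median stayed negative throughout.

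WCL against WCD called 0 members in edgeR, 3 in DESeq2 and 11 in limma-voom, VEL against VED 1, 4 and 13, and WCD against WTD 4 in limma-voom. Of all genes in VEL against VED, DESeq2 called 25 lower and 36 higher, and limma-voom 138 and 197. Interaction counts with a library left out were 0 to 0 within the *wc-1* label and 2 to 2 between labels. Of the alternatives for single named genes, 1931 kept their side of the threshold, 191 lost the call and 77 gained it. The sign changed in 40 of the 2200, of which 39 had no call with or without the alternative and 1 gained a call (NCU02884 in DML against WCL, 1.2 with all libraries, -3.03 without DML replicate 1, and 3.35 without DMD replicate 2, DML replicate 2 and WCL replicate 1). As NCU02884 was picked for its values, its gained call is a description only.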
